A study of Mus musculus with 13 samples.

Results

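The lysosomal cathepsins are the proteases that break down proteins inside lysosomes, and 10 genes of this group were followed in mouse liver RNA. They were taken by name from the deposited table of 53465 genes: *Ctsb*, *Ctsd*, *Ctsl*, *Ctsh*, *Ctsz*, *Ctss*, *Ctsk*, *Ctsc*, *Ctse* and *Lgmn*. All 10 were found, and all 10 had enough counts to be tested. The first 5 are broadly expressed and are made by hepatocytes among other cells. The other 5 are enriched in macrophages or in other special cell types, an assignment made from general knowledge and not from these data.

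Cathepsins are made as inactive precursors, tagged in most cases with mannose 6-phosphate, sent to lysosomes and activated there by acid and by other proteases. Most are cysteine proteases (B, L, H, Z, S, K and C), while D and E are aspartic proteases and legumain, the product of *Lgmn*, cuts after asparagine and helps to activate the others. In the liver they serve protein turnover and autophagy in hepatocytes and the digestion of engulfed material and antigens in Kupffer cells, the resident macrophages of the liver.

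The study compared WT mice with mice lacking *Nod2*, a cytoplasmic sensor of bacterial peptidoglycan fragments. All mice were male and of the inbred BALB/c strain, had received the skin carcinogen DMBA as pups, were kept on a high-fat diet, and carry the labels 30 weeks and cancer. There were 6 WT and 7 *Nod2*-/- mice, with 1 liver library per mouse. *Nod2* was deleted in every cell of the animal, the genotypes were bred separately in one room and were not littermates, and no mice without carcinogen or on another diet are part of this comparison. The labels do not say how much tumor tissue each liver piece held. *Nod2* RNA itself reached too few counts in either genotype to check the labels.

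Polyadenylated RNA was sequenced with strand-specific libraries, and reads per gene were counted on the mouse genome build GRCm38. WT libraries held 14886273 to 20579984 counts on genes, and *Nod2*-/- libraries 13824780 to 19391431. A normalised read count below is a count adjusted for library size by the TMM method of edgeR, and changes between genotypes are log2 fold changes, *Nod2*-/- over WT, tested by the quasi-likelihood method of edgeR, with p adjusted for all 13545 genes tested (Benjamini and Hochberg). Because whole liver was sequenced, fewer cells of a type and less RNA per cell cannot be told apart.

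No cathepsin gene passed 5% FDR between the genotypes (edgeR, 0 of 10, where 1.16% of all tested genes passed). At an unadjusted p under 0.05 there were 3 members, *Ctsc* and *Lgmn* with higher and *Ctse* with lower levels in *Nod2*-/- livers, against 23.1% of all tested genes. The same 3 genes passed 5% FDR with DESeq2, where 8.41% of all tested genes passed, and without WT replicate 3 in edgeR, where 8.49% passed. With limma's voomWithQualityWeights *Ctsc* and *Lgmn* passed, 2 of 10 against a background of 6.22%. By direction, DESeq2 placed 2 members higher and 1 lower (all genes, 4.38% and 4.03%), edgeR without WT replicate 3 also 2 and 1 (5.12% and 3.37%), and voom 2 and 0 (3.83% and 2.39%), while edgeR with all mice placed 0.65% of all genes higher and 0.509% lower. The calls therefore depended on the test and on 1 WT mouse, while the direction of these 3 genes was the same in all 23 alternative fits. The median log2 fold change was 0.22 over the 10 members and 0.016 over all tested genes. It was 0.11 over the 5 broadly expressed members (−0.06 to 0.35) and 0.45 over the 5 assigned as macrophage-enriched (−0.75 to 1.03). The value lay above 0 for 8 of the 10 members, compared with 52.3% of all tested genes. No member had groups without overlap, which 1.44% of all tested genes had.

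**Figure D1:**
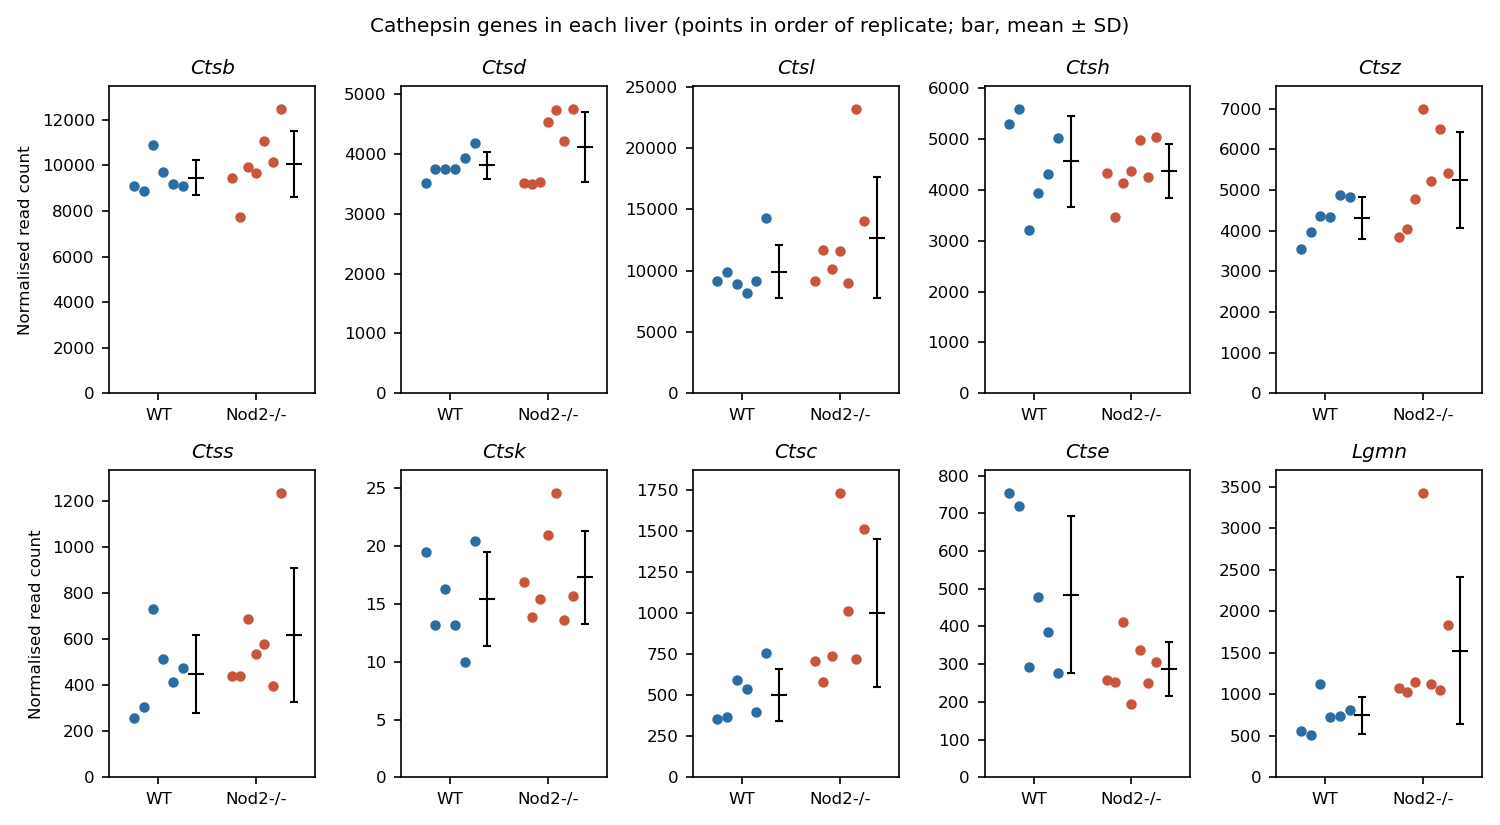
Normalised read counts of the 10 cathepsin genes (y axes, each from 0) in 6 WT and 7 Nod2-/- livers; each point is 1 mouse in order of replicate number and the bar is the mean ± SD. The groups overlap for every gene, and 3 of 7 Nod2-/- livers lie above all WT livers for Ctsc (replicates 4, 5 and 7) and for Lgmn (replicates 3, 4 and 7).

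**Figure D2:**
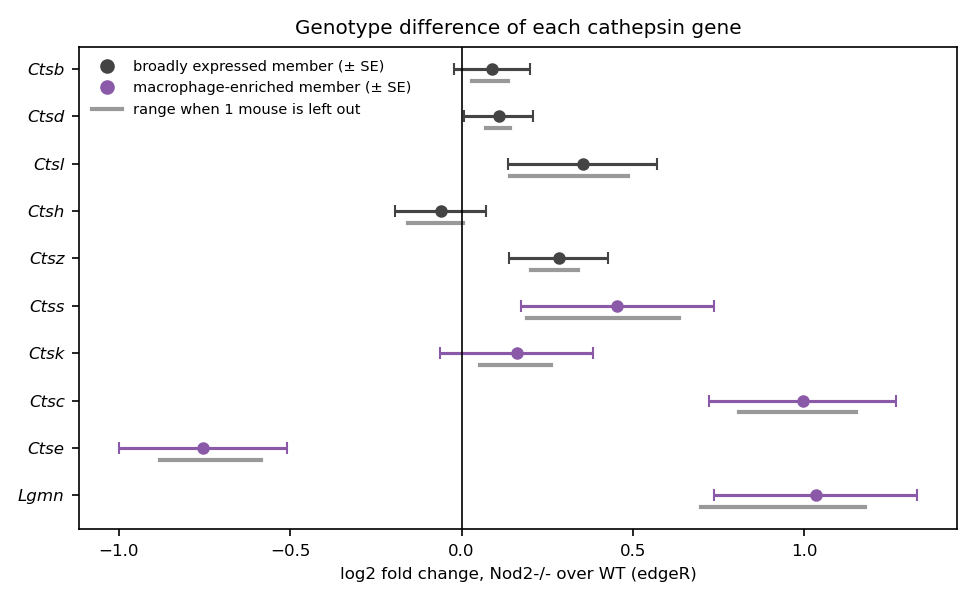
Log2 fold change (x axis, Nod2-/- over WT, edgeR) of each cathepsin gene with its SE, and below each point the range of the fold change when 1 mouse at a time is left out. Lgmn (1.03) and Ctsc (0.99) lie highest and Ctse (−0.75) lowest; only the range of Ctsh crosses 0.

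The members spanned a wide range of levels. TPM, a level per transcript length computed from the merged exons of each gene, put *Ctsz* first with a mean of 489.9 over the 13 livers, and *Ctsk* last with 1.58. *Ctsl* (258.5), *Ctsd* (246.6) and *Ctsb* (237.1) followed *Ctsz*, and their order was not resolved, since *Ctsl* exceeded *Ctsd* in only 5 of 13 livers and *Ctsd* exceeded *Ctsb* in 7. *Ctsh* (143.5 TPM) lay below *Ctsb* in all 13 livers. Next came *Lgmn* (73.4) and *Ctss* (58.8), with *Lgmn* above *Ctss* in 8 of 13 livers, and then *Ctsc* (19.3) and *Ctse* (17.2), with *Ctsc* above *Ctse* in 8 of 13. Without the length correction 7 of the 10 ranks differed, and *Ctsl* came first. The summed level of the 10 genes was 1389 ± 172 TPM in WT livers (SD, n = 6) and 1680 ± 268 in *Nod2*-/- livers (SD, n = 7). The members assigned as macrophage-enriched made up 9.37% ± 1.76 of this sum in WT livers and 12.1% ± 3.30 in *Nod2*-/- livers. The ranges of this share overlapped (7.98% to 12.6% and 7.12% to 16.8%). What part of it was macrophage RNA was not tested.

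**Figure D3:**
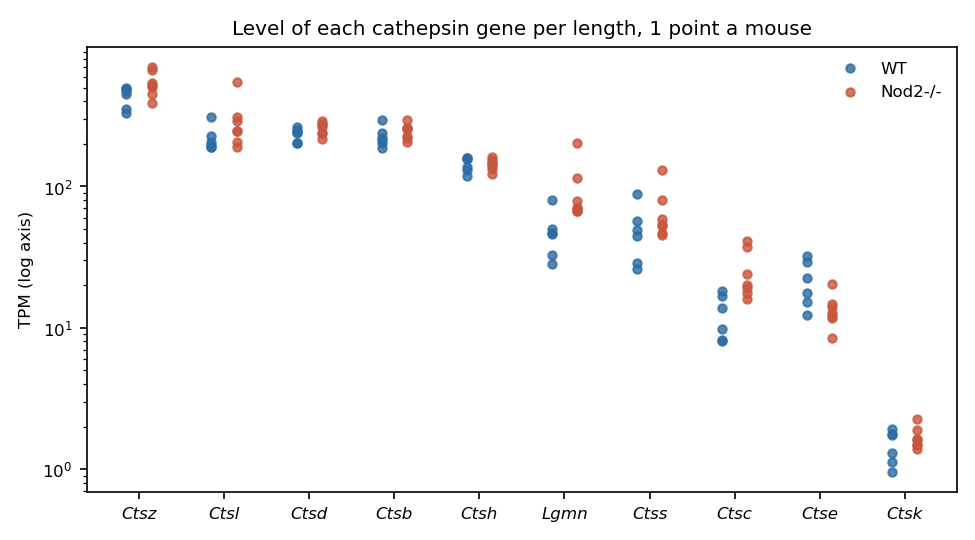
TPM (log axis) of the 10 cathepsin genes, ordered by their mean over all 13 livers; each point is 1 mouse, coloured by genotype. Ctsz is highest at a mean of 489.9 and Ctsk lowest at 1.58, with Ctsl, Ctsd and Ctsb close together.

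*Ctsc* encodes cathepsin C, or dipeptidyl peptidase I, which removes dipeptides from protein ends and activates the serine proteases stored in granules of neutrophils, mast cells and cytotoxic lymphocytes. The gene (ENSMUSG00000030560.17) lies on the plus strand of chromosome 7, from 88278085 to 88310888. Its normalised read count ran from 353.6 (median 467.5) to 755.7 in WT livers and from 581.9 (median 738.6) to 1730 in *Nod2*-/- livers. *Nod2*-/- replicates 4 (1730), 7 (1508) and 5 (1009) lay above all WT livers, 4 WT livers lay below all *Nod2*-/- livers, and the others overlapped. The group means were 501 ± 158 (SD, n = 6) and 999.4 ± 447 (SD, n = 7). The log2 fold change was 0.99 (SE 0.27, adjusted p = 0.0710 by edgeR, and p = 0.0181 by a two-sided exact permutation test over 1716 splits of the mice, whose smallest possible p is 0.000583). The adjusted p was 0.0110 with DESeq2, 0.0396 with voom, and 0.0470 in edgeR without WT replicate 3. Leaving out 1 mouse at a time gave log2 fold changes from 0.81 to 1.15.

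*Lgmn*, which encodes legumain, showed a like pattern. It is ENSMUSG00000021190.14, on the minus strand of chromosome 12 from 102394084 to 102439813. Its normalised read count ran from 509.8 (median 734.7) to 1126 in WT livers and from 1025 (median 1123) to 3431 in *Nod2*-/- livers. In 5 WT livers the value lay below that of every *Nod2*-/- liver. WT replicate 3 (1126), the highest WT liver, lay among the *Nod2*-/- livers, of which replicates 4 (3431) and 7 (1842) stood above the rest. WT livers averaged 747 ± 219 (SD, n = 6) and *Nod2*-/- livers 1529 ± 886 (SD, n = 7), a log2 fold change of 1.03 (SE 0.30, edgeR adjusted p = 0.0774, two-sided exact permutation p = 0.0117). The log2 fold change was 0.70 without *Nod2*-/- replicate 4 (adjusted p = 0.120) and 1.18 without WT replicate 3 (adjusted p = 0.0366), the ends of the range over left-out mice. DESeq2 gave an adjusted p of 0.0139 and voom one of 0.0331.

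The levels of *Ctsc* and *Lgmn* varied together from mouse to mouse: with the genotype means removed, log2 values of the 2 genes had a Pearson r of 0.85 over the 13 livers, the highest of all pairs of members. This is a description of 13 libraries, which share their depth and cell make-up, and 2 livers, *Nod2*-/- replicates 4 and 7, were highest in both genes. The sequences before their start sites are shown because the pair moved together. That of *Ctss*, a macrophage gene less close to the pair (r = 0.65 with *Ctsc* and 0.54 with *Lgmn*), is shown beside them. They are from RefSeq on GRCm38.p6, 5′ to 3′, and end at the base before the outermost annotated start: *Ctsc* chr7:88277835-88278084 on the plus strand, *Lgmn* chr12:102439814-102439978 on the minus strand and *Ctss* chr3:95526536-95526785 on the plus strand. Capitals mark a match, on either strand, to GAGGAAGT, the letters of a site for PU.1, a transcription factor of myeloid cells.
Ctsc: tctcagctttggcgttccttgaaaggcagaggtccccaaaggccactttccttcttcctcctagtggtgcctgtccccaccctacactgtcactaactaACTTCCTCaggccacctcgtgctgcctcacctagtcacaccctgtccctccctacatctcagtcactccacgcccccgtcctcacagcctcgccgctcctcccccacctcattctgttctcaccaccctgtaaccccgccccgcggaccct
Lgmn: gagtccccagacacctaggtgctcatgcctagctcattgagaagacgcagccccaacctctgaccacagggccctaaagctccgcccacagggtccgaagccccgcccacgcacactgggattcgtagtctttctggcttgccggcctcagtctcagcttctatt
Ctss: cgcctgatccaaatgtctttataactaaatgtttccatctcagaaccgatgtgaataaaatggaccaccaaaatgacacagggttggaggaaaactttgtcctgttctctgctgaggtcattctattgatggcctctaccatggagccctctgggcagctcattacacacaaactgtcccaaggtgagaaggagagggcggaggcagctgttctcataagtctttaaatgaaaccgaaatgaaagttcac
The match in *Ctsc* begins 151 bases before the start, and 2.44% of 32851 mouse promoter windows of 250 bases hold these letters. No other capitals appear, since the *Lgmn* and *Ctss* stretches hold neither these letters nor CACGTG or TGACTCA. A match of letters is a description and not a bound site.

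Among 8547 genes whose average log2 CPM reached 3, the gene whose pattern was most like that of *Ctsc* was *Prtn3* (r = 0.92 over 13 livers, genotype means removed), which encodes proteinase 3, a granule protease that cathepsin C activates. The next were *Tmem176b* (r = 0.91) and *Cpd* (r = 0.90). *Prtn3* met this limit on CPM only through its *Nod2*-/- values, so it was bound to differ between the genotypes among the genes compared. It had normalised read counts of 2.05 to 31.9 in WT livers and of 12.9 to 1223 in *Nod2*-/- livers. *Nod2*-/- replicates 4 (1223) and 7 (842) were again the highest, and the next liver had 92.5. The log2 fold change of *Prtn3* was 4.97 (SE 1.18, edgeR adjusted p = 0.0549, two-sided exact permutation p = 0.142). The edgeR adjusted p was 0.0389 without WT replicate 3 and 0.0387, 0.0459 and 0.0498 without *Nod2*-/- replicates 1, 2 and 3. *Prtn3* also passed the count filter of edgeR through its *Nod2*-/- livers, so these p cannot be read apart from that filter. Of 8 granule serine protease genes, 1 (*Prtn3*) had enough counts to be tested, and *Gzmb*, *Gzmk*, *Cma1* and *Tpsb2* never exceeded 3 counts. *Elane* and *Ctsg*, which encode neutrophil elastase and cathepsin G, reached 186 and 190.1 normalised counts in *Nod2*-/- replicate 7 but 4.99 and 1.99 in replicate 4. The neutrophil marker list gave the same split, with a summed level of 992 CPM in replicate 7, 21.1 CPM in replicate 4, 5.92 to 41.0 CPM in the other *Nod2*-/- livers and 4.15 to 9.31 CPM in WT livers. Of its 10 genes 4 were tested, and all 4 were higher at an unadjusted p under 0.05 (all genes, 12.9%). None of them passed 5% FDR in edgeR, while 3 of the 10 listed were higher past it with DESeq2 (all genes, 4.38%). The exact permutation test gave these 4 genes p of 0.464 (*S100a8*), 0.434 (*S100a9*), 0.181 (*Csf3r*) and 0.652 (*Cxcr2*). For *Cxcr2* the log2 fold change was 1.79 in edgeR and 0.075 in DESeq2. Both livers were thus high in *Ctsc* and *Prtn3*, and 1 of them had a high sum of neutrophil markers. The part of neutrophil RNA in the *Ctsc* value was not tested.

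The genes closest to *Lgmn* in pattern were *Cfi* (r = 0.95), *Fn1* (r = 0.95) and *Itm2c* (r = 0.95). *Cfi* encodes complement factor I and *Fn1* encodes fibronectin, both secreted by hepatocytes. *Fn1* had 47662 normalised counts in *Nod2*-/- replicate 4, the liver also highest in *Lgmn*, and at most 33261 elsewhere. The Spearman rho was 0.81 for *Cfi*, 0.84 for *Fn1* and 0.81 for *Itm2c*. In that liver the summed hepatocyte markers (167043 CPM, with 83173 to 119047 CPM in all other livers) and the lipid-associated macrophage markers (346 CPM, with 55.4 to 235 CPM elsewhere) were highest as well. The latter sum rests on its abundant genes. In *Nod2*-/- livers *Fabp5* reached 3297 and *Cd36* 1895 normalised counts, but *Gpnmb* at most 87.3 and *Trem2* at most 61.7. Over all 13 livers the median r of *Lgmn* with the 10 hepatocyte markers was −0.42 (range −0.74 to 0.74), and with 14 macrophage markers it was 0.41 (range −0.41 to 0.58). Over left-out mice the value of *Lgmn* fell most without this liver, and the part of either cell type in it was not tested.

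*Ctss* encodes cathepsin S, which trims the invariant chain of MHC class II in antigen-presenting cells, and *Ctsk* encodes cathepsin K, the collagen-degrading protease of osteoclasts. The 2 genes are neighbors on the plus strand of chromosome 3, *Ctsk* (ENSMUSG00000028111.4) from 95499256 to 95509362 and *Ctss* (ENSMUSG00000038642.10) from 95526786 to 95556403, with 17423 bases between them. *Ctss* ran from 259.3 (median 446.5) to 730 normalised counts in WT livers and from 397 (median 538.5) to 1238 in *Nod2*-/- livers. The groups overlapped over most of this range, and the top livers were *Nod2*-/- replicate 7 and WT replicate 3. This gave a log2 fold change of 0.45 (SE 0.28, edgeR adjusted p = 0.344). It was 0.19 without *Nod2*-/- replicate 7 (adjusted p = 0.671) and 0.63 without WT replicate 3 (adjusted p = 0.151). *Ctsk* was scarce, with 9 to 28 reads per library, and its log2 fold change was 0.16 (SE 0.22, edgeR adjusted p = 0.691). At this depth shared variation of *Ctsk* with *Ctss* could not be read.

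Variation in *Ctss* between livers followed genes of macrophages and, less closely, those of neutrophils. Its closest genes were *Csf1r* (r = 0.97), the receptor for the macrophage growth factor CSF1, *Ptprc* (r = 0.96), the pan-leukocyte gene for CD45, and *Cd44* (r = 0.94). Over 14 Kupffer cell and macrophage marker genes the median r was 0.82 with *Ctss*, 0.80 with *Ctsb*, 0.55 with *Ctsc*, 0.45 with *Ctsd* and 0.41 with *Lgmn*. It was 0.17 with *Ctsz*, 0.099 with *Ctsk*, −0.065 with *Ctsh*, −0.066 with *Ctse* and −0.18 with *Ctsl*. The members assigned as broadly expressed and as macrophage-enriched thus overlapped in these values. With 10 hepatocyte markers the median r was −0.29 for *Ctss* and 0.37 for *Ctsh*, the highest of the members. With 4 neutrophil markers it was 0.70 for *Ctsb*, 0.68 for *Ctss*, 0.62 for *Ctsd* and 0.58 for *Ctsc*. The other members ran from 0.064 (*Ctse*) to 0.34 (*Ctsh*) with these neutrophil markers, whose list sum was highest in *Nod2*-/- replicate 7. The summed macrophage markers ran from 219 to 388 CPM in WT livers, highest in replicate 3, and from 267 to 724 CPM in *Nod2*-/- livers, highest in replicate 7. All 14 markers were detected, 12 had a log2 fold change above 0 (all genes, 52.3%), 3 were higher at an unadjusted p under 0.05 (all genes, 12.9%), and none passed 5% FDR in edgeR or DESeq2. Without WT replicate 3, 1 was higher past it in edgeR (all genes, 5.12%). The part of macrophages or neutrophils in the *Ctss* value was not tested.

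**Figure D4:**
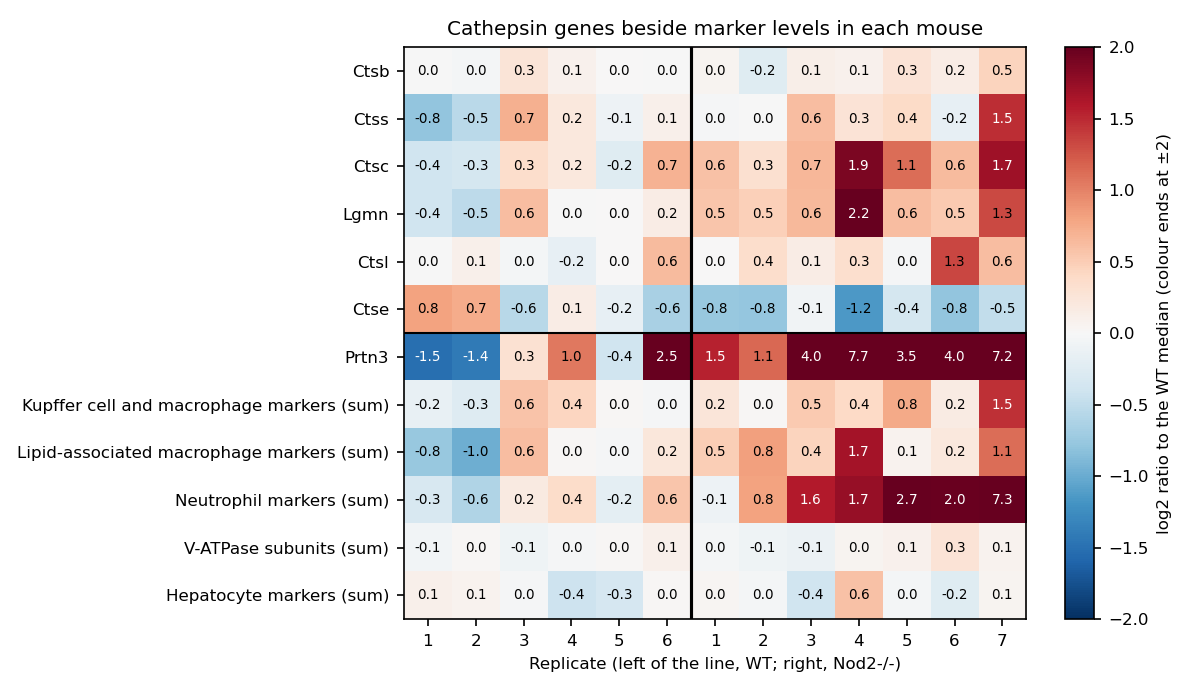
Log2 ratio to the WT median (colour and printed value, colour ends at ±2) in each of 6 WT and 7 Nod2-/- livers for 6 cathepsin genes (above the horizontal line) and for Prtn3 and summed marker lists (below it). Ctss and the Kupffer cell and macrophage markers are both highest in Nod2-/- replicate 7 and, among WT livers, in replicate 3, while Ctsc and Prtn3 are highest in Nod2-/- replicates 4 and 7.

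*Ctse* was the member with a lower level in *Nod2*-/- livers. It encodes cathepsin E, an aspartic protease known from stomach, lymphoid and red blood cells. The gene (ENSMUSG00000004552.16) lies on the plus strand of chromosome 1, from 131638306 to 131675505. Normalised read counts ran from 275.9 (median 432.3) to 754.4 in WT livers and from 194.5 (median 257) to 411 in *Nod2*-/- livers. WT replicates 1 (754.4), 2 (720.4) and 4 (478) lay above every *Nod2*-/- liver, while WT replicates 3, 5 and 6 lay within the *Nod2*-/- range. The means were 485 ± 209 (SD, n = 6) and 287 ± 71.1 (SD, n = 7), with a log2 fold change of −0.75 (SE 0.25, edgeR adjusted p = 0.102, two-sided exact permutation p = 0.0280). DESeq2 gave an adjusted p of 0.0351 and voom one of 0.0767. Leaving out WT replicate 3 gave −0.88 (adjusted p = 0.0402), and leaving out WT replicate 1 gave −0.58 (adjusted p = 0.212).

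The genes most like *Ctse* in pattern were metabolic: *Pdk1* (r = 0.92), a kinase that restrains pyruvate dehydrogenase, *Akr1d1* (r = 0.91), a bile acid synthesis enzyme, and *Acot4* (r = 0.91), a peroxisomal thioesterase. *Akr1d1* was likewise highest in WT replicates 1 (4056) and 2 (4521), with 1037 to 2334 normalised counts in all other livers. Markers of cells known for cathepsin E, and of other tissues, are given beside it. Of 6 erythroid markers 4 were tested and 3 were higher in *Nod2*-/- livers at an unadjusted p under 0.05 (all genes, 12.9%), the fourth, *Alas2*, had a log2 fold change of −0.39 (SE 0.32, edgeR adjusted p = 0.468), and the sum of the 6 was 301 to 507 CPM in WT and 368 to 1084 CPM in *Nod2*-/- livers. Of 9 stomach and pancreas markers 7 never exceeded 3 counts, with *Cpa1* and *Pnlip* at 0. The only one tested, the elastase gene *Cela1*, had a log2 fold change of −0.83 (SE 0.29, edgeR adjusted p = 0.117, DESeq2 adjusted p = 0.0466). The sum of the 9 was 35.4 to 80.5 CPM in WT livers and 13.3 to 56.4 CPM in *Nod2*-/- livers. It was highest in WT replicates 2 (80.5) and 1 (73.4), also the highest livers for *Ctse*. With the other 7 genes at no more than 3 counts, this sum rests on *Cela1* and the untested *Gkn2*. It is therefore no measure of stomach or pancreas tissue as a whole. Lung epithelium markers also had lower sums in *Nod2*-/- livers (2.93 to 32.8 CPM) than in WT livers (13.9 to 202 CPM), with overlap. The highest values were in WT replicates 4 and 2, and all 5 tested lung genes were lower at an unadjusted p under 0.05 (all genes, 10.2%). None passed 5% FDR in edgeR with all mice. Lower past 5% FDR were 3 without WT replicate 3 (all genes, 3.37%) and 7 of the 9 listed with DESeq2 (all genes, 4.03%). In the lymphoid lists 1 gene each was tested, *Cd79b* of B cells (0.97, SE 0.33, edgeR adjusted p = 0.106) and *Cd4* of T cells (0.26, SE 0.33, edgeR adjusted p = 0.659). The part of these tissues and cells in the *Ctse* value was not tested.

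*Ctsb*, *Ctsd* and *Ctsl* encode the main endoproteases of the lysosome. *Ctsl* (ENSMUSG00000021477.9, chromosome 13, 64359337 to 64370890, minus strand) ran from 8180 (median 9160) to 14254 normalised counts in WT livers and from 8968 (median 11605) to 23194 in *Nod2*-/- livers. In each genotype replicate 6 stood far above the others. The log2 fold change was 0.35 (SE 0.22, edgeR adjusted p = 0.340). It was 0.14 without *Nod2*-/- replicate 6 and 0.48 without WT replicate 6. The closest genes to *Ctsl* were *Krt8* (r = 0.87), a keratin of liver epithelial cells, *Myl12a* (r = 0.86), a myosin light chain, and *Cdc42* (r = 0.86), a small GTPase. For *Krt8* the Spearman rho was 0.54, lower than r, and the same 2 livers were highest (5818 in WT replicate 6 and 6996 in *Nod2*-/- replicate 6). The summed V-ATPase subunits, which acidify the lysosome, were also highest in these 2 livers (953 and 1065 CPM, with 815 to 936 CPM in the others).

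*Ctsb* (ENSMUSG00000021939.8, chromosome 14, 63122462 to 63145923, plus strand) ran from 8871 (median 9131) to 10885 in WT livers and from 7753 (median 9934) to 12489 in *Nod2*-/- livers, in normalised counts. The WT range lay wholly inside the *Nod2*-/- range, and the log2 fold change was 0.09 (SE 0.11, edgeR adjusted p = 0.657). Its closest genes were *C1qc* (r = 0.92), *C1qa* (r = 0.90) and *Dmpk* (r = 0.90), of which the first 2 encode complement C1q chains made by macrophages. *Ctsb* shares 774 exon bases with *Fdft1*, the squalene synthase gene on the opposite strand, which had 795 to 3203 reads and a log2 fold change of 0.62 (SE 0.24, edgeR adjusted p = 0.150). The strand setting of the authors' counting is not given in the sources used here, so reads in the shared bases may belong to either gene.

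*Ctsd* (ENSMUSG00000007891.16, chromosome 7, 142375911 to 142388038, minus strand) encodes the aspartic protease cathepsin D. It varied least within WT livers, with a coefficient of variation of 5.90%, while *Nod2*-/- livers had 14.2%. Normalised counts ran from 3517 (median 3747) to 4186 in WT and from 3498 (median 4209) to 4750 in *Nod2*-/- livers. The *Nod2*-/- livers fell on both sides of the WT values, with 4 of 7 above and 2 of 7 below all WT livers. The log2 fold change was 0.11 (SE 0.10, edgeR adjusted p = 0.535). A RefSeq window, the 250 bases before a RefSeq start, was found for 7 members, and that of *Ctsd* was the one that held TCACGTGA, letters of the CLEAR element through which TFEB, TFE3 and MITF turn on lysosome genes. It is shown because these factors are described next, with 30 bases of RefSeq sequence, minus strand, 5′ to 3′, at chr7:142387908-142387937 of GRCm38.p6 and the element in capitals. These bases lie within the *Ctsd* gene as GENCODE draws it, since 39 of the 250 bases are upstream of its outermost annotated start.
Ctsd: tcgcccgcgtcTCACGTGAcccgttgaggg
Of all 32851 promoter windows of 250 bases, 0.785% held TCACGTGA and 6.02% held its inner letters CACGTG. The windows of 3 members (*Ctsd*, *Ctsl* and *Lgmn*, the last in the window of a second start site) held CACGTG.

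*Ctsz* and *Ctsh* encode exopeptidases, a carboxypeptidase and an aminopeptidase. *Ctsz* (ENSMUSG00000016256.10, chromosome 2, 174427493 to 174439039, minus strand) ran from 3547 (median 4342) to 4880 normalised counts in WT livers and from 3837 (median 5233) to 6999 in *Nod2*-/- livers. There were 4 of 7 *Nod2*-/- livers above all WT livers, and the lower 3 overlapped with WT. Between the genotypes it had a log2 fold change of 0.28 (SE 0.14, edgeR adjusted p = 0.253, two-sided exact permutation p = 0.105). Its closest gene was *Ifitm3* (r = 0.97), an interferon-induced antiviral gene, followed by *Eif4ebp1* (r = 0.92), a repressor of translation, and *Ctsa* (r = 0.91), which encodes the lysosomal carboxypeptidase cathepsin A.

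*Ctsh* (ENSMUSG00000032359.14, chromosome 9, 90054152 to 90076089, plus strand) ran from 3207 (median 4655) to 5587 in WT and from 3471 (median 4317) to 5040 in *Nod2*-/- livers, in normalised counts. Here the *Nod2*-/- range lay inside the WT range. Its log2 fold change was −0.06 (SE 0.13, edgeR adjusted p = 0.813), and without WT replicate 2, the highest liver, it was 0.0053. The closest genes were *Mpc2* (r = 0.96), a mitochondrial pyruvate carrier, *Pxmp2* (r = 0.95), a peroxisomal membrane protein, and *Ninj1* (r = 0.95). *Ctsd* followed *Serinc3* (r = 0.94), and the closest gene to the scarce *Ctsk*, *Wsb1*, reached an r of 0.81.

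The rest of the lysosome gives the setting for these values. One gene of the lysosome lists passed 5% FDR in edgeR: *Atp6v0a2*, an a-subunit of the V-ATPase proton pump, was lower in *Nod2*-/- livers. It ran from 796 to 925 normalised counts in WT livers and from 549 to 720 in *Nod2*-/- livers, without overlap, and had a log2 fold change of −0.42 (SE 0.075, edgeR adjusted p = 0.0170). Without WT replicate 4 the adjusted p was 0.0560. *Tcirg1*, named here after its values were seen, encodes the a3 subunit of the pump and had a log2 fold change of 0.42 (SE 0.10, edgeR adjusted p = 0.0565), with 437 to 576 normalised counts in WT and 576 to 804 in *Nod2*-/- livers. It passed 5% FDR with DESeq2 (adjusted p = 0.0065) and in edgeR without WT replicate 3 (adjusted p = 0.0284). Over all 18 V-ATPase subunits the median log2 fold change was 0.040, with 3 higher and 1 lower at an unadjusted p under 0.05, near the shares of 12.9% and 10.2% over all genes.

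None of the 33 tested lysosomal sugar and lipid hydrolases passed 5% FDR in edgeR, and 12 had higher and 1 had lower levels in *Nod2*-/- livers at an unadjusted p under 0.05 (all genes, 12.9% and 10.2%). DESeq2 placed 3 of them higher and 1 lower past 5% FDR (all genes, 4.38% and 4.03%). *Galns*, which degrades keratan sulfate, had a log2 fold change of 0.70 (SE 0.20, edgeR adjusted p = 0.0723), and *Gm2a*, the activator of ganglioside breakdown, one of 0.55 (SE 0.17, edgeR adjusted p = 0.0923). The median over the hydrolases was 0.15, while 14 lysosomal membrane proteins had a median of −0.092 and 4 of 14 above 0 (all genes, 52.3%). None of the 14 passed 5% FDR in edgeR and 1 was lower with DESeq2 (all genes, 4.03%). *Cd63* (1.69, SE 0.68, edgeR adjusted p = 0.162) and *Laptm5* (0.78, SE 0.29, edgeR adjusted p = 0.136), a lysosomal protein of leukocytes, had the largest values of that list. *Cd63* had 0.98 without *Nod2*-/- replicate 4. It passed 5% FDR with voom (2.06, adjusted p = 0.0463) and in edgeR without WT replicate 3 (2.49, adjusted p = 0.0373). The same held in edgeR without both WT replicate 3 and *Nod2*-/- replicate 7 (2.63, adjusted p = 0.0459). Of 8 tested lysosomal proteases outside the cathepsins none passed 5% FDR in edgeR or DESeq2, and 3 were higher at an unadjusted p under 0.05 (all genes, 12.9%). *Prcp*, a carboxypeptidase, had a log2 fold change of 0.63 (SE 0.21, edgeR adjusted p = 0.106) and passed with voom (adjusted p = 0.0463) and without WT replicate 3 in edgeR (adjusted p = 0.0351), and *Napsa*, the aspartic protease napsin A, one of 0.54 (SE 0.63, edgeR adjusted p = 0.626).

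Genes that control or deliver cathepsins gave no call at 5% FDR in edgeR with all mice. The TFEB family had log2 fold changes of 0.0055 for *Tfeb* (SE 0.096), 0.20 for *Tfe3* (SE 0.092), 0.54 for *Tfec* (SE 0.27) and −0.33 for *Mitf* (SE 0.17), with edgeR adjusted p of 0.979, 0.204, 0.245 and 0.263. Of the 6 mannose 6-phosphate sorting genes none had an unadjusted p under 0.05 (all genes, 23.1%). Above 0 lay 1 (all genes, 52.3%), the sortilin gene *Sort1* (0.71, SE 0.39, edgeR adjusted p = 0.287). Without WT replicate 3 *Sort1* had 1.21 and passed 5% FDR (edgeR adjusted p = 0.0388). *Nagpa*, which uncovers the tag, had −0.18 (SE 0.10, edgeR adjusted p = 0.302). All 5 tested inhibitors of cysteine cathepsins, of 12 listed, had values above 0 (all genes, 52.3%). At an unadjusted p under 0.05, 2 were higher (all genes, 12.9%), *Ctla2a* and *Cstb* (0.31, SE 0.13, edgeR adjusted p = 0.172). *Ctla2a*, a cathepsin L inhibitor of lymphocytes, had 0.92 (SE 0.38, edgeR adjusted p = 0.173) and the kininogen gene *Kng1* had 0.52 (SE 0.25, edgeR adjusted p = 0.236). *Kng1* reached 87001 normalised counts in *Nod2*-/- replicate 4, the liver with the most *Lgmn*, and at most 45573 in any other.

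**Figure D5:**
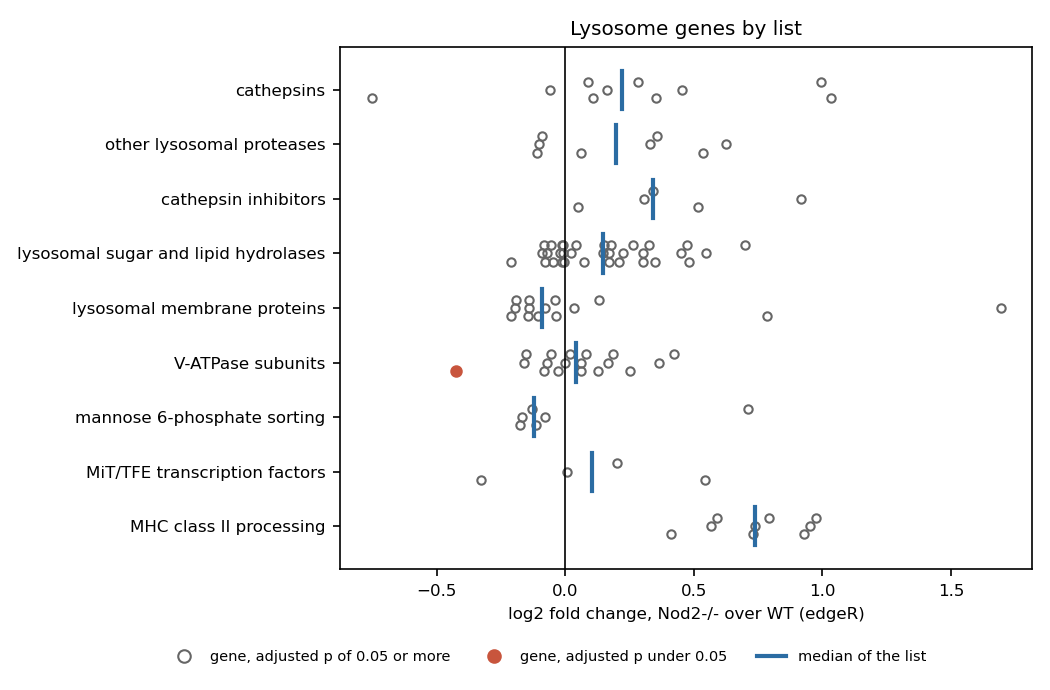
Log2 fold change (x axis, Nod2-/- over WT, edgeR) of each tested gene of the cathepsins and 8 other lysosome-related lists; points are genes, filled where the adjusted p is under 0.05, and the vertical bar is the median of the list. One filled point, Atp6v0a2 at −0.42, stands in the V-ATPase list, and all 9 genes of MHC class II processing lie above 0.

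MHC class II processing, which cathepsins S and L serve, had 9 of 9 genes above 0 with a median log2 fold change of 0.74 (all genes, 52.3% above 0). None passed 5% FDR in edgeR and 1 was higher past it with DESeq2 (all genes, 4.38%), and 5 were higher at an unadjusted p under 0.05 (all genes, 12.9%). *H2-DMa*, which loads peptides, had 0.98 (SE 0.28, edgeR adjusted p = 0.0775), and *H2-Ab1*, a class II chain, had 0.95 (SE 0.37, edgeR adjusted p = 0.152). *Cd74*, the invariant chain, ran from 500 to 1632 normalised counts in WT livers, highest in replicate 3, and from 715 to 2926 in *Nod2*-/- livers, highest in replicate 5. Without WT replicate 3, 1 of these 9 genes was higher past 5% FDR in edgeR (all genes, 5.12%).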

How the data were processed

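Liver RNA from 6 WT and 7 *Nod2*-/- mice was analysed, 1 library per mouse, grouped by the labels. Per the labels and the study's methods, the authors trimmed reads (Trimmomatic 0.33), mapped them to GRCm38 (TopHat2 2.1.1) and deposited raw read counts per gene; the counting program and its strand setting are not given in the sources used here. One entry without an identifier was left out. Symbols matched 53274 of 53465 identifiers. The test was that of edgeR 4.0.16 on the 13545 genes that its filterByExpr kept, which held 99.9% of counts (TMM, glmQLFit, glmQLFTest, R 4.3.3), with DESeq2 1.42.0, limma 3.58.1 and sva 3.50.0 for alternatives. Fits were tested on 1 simulated draw of counts, made gene by gene with edgeR's own dispersions. In that draw DESeq2's share of false calls exceeded its nominal level, and those of edgeR and voom stayed close to it. The limit allowed for DESeq2 was loosened after the draw was seen. The draw held no livers that stand apart and does not measure the error of any method in these data. Levels per length used GENCODE M21 exon lengths.

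The cathepsin genes and all 22 other lists were chosen with earlier results of these data known. From each other list, genes past 5% FDR, or else the 2 with the largest change, and all TFEB family genes are named; other genes named were chosen after their values were seen or are 1 of the 3 closest in pattern. The closest genes were found by Pearson correlation of log2 CPM (prior count 2). Each library is 1 mouse, the labels name no batch, and every library pair within a genotype differed by more than counting error.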

Additional observations from a re-analysis of the deposited data

Results flagged for a closer look

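Of the 20 groups (10 genes in 2 genotypes) examined for a liver that stands apart from its group, 4 held one, each at the high end. The limit used would flag about 1 in 20 groups of normally distributed values. These groups hold normalised counts of the same mice for genes that vary together, so the 4 cannot be weighed against that share. WT replicate 6 had 14254 normalised counts of *Ctsl*, where the next WT liver had 9876, and *Nod2*-/- replicate 6 had 23194, where the next had 14019. *Nod2*-/- replicate 7 had 1238 normalised counts of *Ctss*, with 687 in the next liver. *Nod2*-/- replicate 4 had 3431 normalised counts of *Lgmn*, with 1842 in the next liver.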

How the results depend on the processing

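Over 23 alternatives the number of cathepsin genes past 5% FDR went from 0 to 3 with DESeq2 and to 2 with voom, and was 0 to 3 when 1 mouse was left out, with 3 only without WT replicate 3. In 229 alternative values of the members' log2 fold changes, 1 changed sign (*Ctsh*, which ranged from −0.16 to 0.0053 when 1 mouse was left out, highest without WT replicate 2) and 8 passed the threshold that the reported value missed. Permutation p fell under 0.05 for 3 members, and for 1 to 3 when 1 mouse was left out, with 1 without WT replicate 1 or 2. The permutation test was not run over all genes, so this count has no background share. By edgeR 23.1% of all genes had an unadjusted p under 0.05. All genes past 5% FDR, 88 higher and 69 lower, numbered 443 and 388 with 1 surrogate variable, 630 and 579 with DESeq2, 519 and 324 with voom, 408 and 159 without both WT replicate 3 and *Nod2*-/- replicate 7, and 20 to 697 and 20 to 459 when 1 mouse was left out, the highest without WT replicate 3 and the lowest without WT replicate 4 (higher) and 1 (lower). Of the other list genes 2 passed (*Atp6v0a2* and *Sox9*), 16 with the surrogate variable, 31 with DESeq2, 14 with voom, 13 without both mice and 0 to 22 when 1 mouse was left out. Gene length moved 7 ranks of levels. *Tfeb* turned to −0.0045 with RLE, −0.012 without the count filter, −0.012 with DESeq2, −0.038 with voom, and −0.024 to 0.052 when 1 mouse was left out. *Napsa* turned to −0.21 with the replicate block, −0.27 with voom and −0.0064 without both mice. The cause of these shifts was not tested. Taking the replicate number as a block gave 15 higher and 17 lower genes, 0 cathepsins and 0 other list genes, but mice with the same number did not deviate together (correlations −0.302 to 0.304, 1 of 6 over 0.1), and no WT mouse matched its own number best. *Ctsk*, at 9 to 28 reads, is limited by depth and has no value where at least 10 counts were asked of every mouse.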

Other observations

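Lists of other liver cells, not described above, gave 1 call at 5% FDR in edgeR (all genes, 1.16%) and more with DESeq2. DESeq2 placed 2 lipid-associated macrophage, 1 monocyte, 1 endothelial and 1 bile duct marker higher (all genes, 4.38%). It placed 3 hepatocyte markers lower (all genes, 4.03%). *Sox9*, a transcription factor of bile duct and progenitor cells, was higher in *Nod2*-/- livers (122 ± 30.8 normalised counts, SD, n = 7) than in WT livers (49.7 ± 19.8, SD, n = 6), with a log2 fold change of 1.29 (SE 0.25, edgeR adjusted p = 0.0324), and it ran from 24.1 to 77.8 and from 77.1 to 164 normalised counts. It was not past 5% FDR without WT replicate 1, 2, 4 or 5 or without *Nod2*-/- replicate 4, 6 or 7 (edgeR adjusted p from 0.0503 to 0.0827), nor with the replicate number as a block (adjusted p = 0.0945). In monocyte and dendritic cell markers all 5 tested genes were above 0 (all genes, 52.3%) and 4 were higher at an unadjusted p under 0.05 (all genes, 12.9%). *Cd14* had a log2 fold change of 2.22 (SE 0.65, edgeR adjusted p = 0.0793) and *Ly6c2* one of 1.20 (SE 0.53, edgeR adjusted p = 0.196), and without *Nod2*-/- replicate 7 they had 1.31 and 0.53.

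Of 14 Kupffer cell markers 12 and of 8 lipid-associated macrophage markers 6 lay above 0 (all genes, 52.3%). In each list 3 were higher and 0 lower at an unadjusted p under 0.05 (all genes, 12.9% and 10.2%). *Cd5l* (0.79, SE 0.31, edgeR adjusted p = 0.149) and *Marco* (−0.85, SE 0.51) were the farthest from 0 among Kupffer cell markers, and *Fabp5* (1.38, SE 0.53, edgeR adjusted p = 0.144) and *Gpnmb* (−1.29, SE 0.67, edgeR adjusted p = 0.259) among lipid-associated macrophage markers. *Cd9* (1.28, SE 0.36, edgeR adjusted p = 0.0723, DESeq2 adjusted p = 0.0091) and *Lpl* (1.14, SE 0.41, edgeR adjusted p = 0.126, DESeq2 adjusted p = 0.0448), named after their values were seen, lay close to *Fabp5*. The neutrophil genes *S100a8* and *S100a9* had log2 fold changes of 5.40 (SE 1.44) and 4.85 (SE 1.26), with edgeR adjusted p of 0.0673 and 0.0656, and *Nod2*-/- replicate 7 alone held 4776 and 7379 normalised counts. Without that liver the values were 2.01 and 1.92, and with DESeq2 they were 1.90 and 1.82 and past 5% FDR (adjusted p = 0.00066 and 0.00018). The erythroid genes *Hba-a1* and *Hbb-bt* had 1.70 (SE 0.50, edgeR adjusted p = 0.0803) and 1.55 (SE 0.46, edgeR adjusted p = 0.0807).

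Of the other cell lists, 10 stellate cell and fibroblast markers had no gene at an unadjusted p under 0.05 (*Acta2* 0.48 and *Lrat* −0.30). The 6 endothelial markers had 1, *Pecam1* (0.46, SE 0.12, edgeR adjusted p = 0.0662), with *Lyve1* at 1.07 (SE 0.50, edgeR adjusted p = 0.219). Over all genes the share in either direction was 23.1%. Of 10 hepatocyte markers 4 lay above 0 (all genes, 52.3%). At an unadjusted p under 0.05, 1 was higher (*Apoa1*, 0.53, SE 0.23, edgeR adjusted p = 0.198) and 3 were lower (all genes, 12.9% and 10.2%). *Cyp2e1* had −0.94 (SE 0.27, edgeR adjusted p = 0.0777) and *G6pc* −0.77 (SE 0.48, edgeR adjusted p = 0.348). The lung surfactant genes *Sftpc* and *Sftpb* had −3.09 (SE 0.85, edgeR adjusted p = 0.0712) and −2.85 (SE 0.79, edgeR adjusted p = 0.0710).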
